A study of Mus musculus with 6 samples.

Results

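The 44 mouse genes described here encode the contractile, calcium-handling and energy proteins of skeletal muscle and the factors that form muscle fibres. They were taken from a fixed list by gene symbol, and all 44 were found among the 55536 named rows of a mouse count table. The RNA came from tumours that DU145 cells, an established human prostate cancer line, formed under the skin of male nude mice, a strain that lacks mature T cells. There were 3 Zelnorm tumours, from mice that were given Zelnorm by mouth each day at a dose not given in the labels, and 3 control tumours. The titles of the treated samples read MBZ, an abbreviation no label explains, while their treatment label reads Zelnorm. No label names the animals, so taking each sample as a separate tumour, as is done below, is an assumption. Libraries are named by their columns, MBZ_254, MBZ_257 and MBZ_259 for Zelnorm and NC10, NC4 and NC9 for control, and values below follow that order within each group. Each tumour was also read in a human count table, and all 44 symbols were found there in human spelling. The list holds 14 genes of fast fibres, 5 of slow fibres, 2 developmental myosins, 3 myogenic factors, 7 sarcomere genes shared by fibre types, 4 of excitation and calcium release, 5 of metabolism and 4 that respond to load or stretch.

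Skeletal muscle fibres contract when calcium, released from internal stores, lets myosin heads pull on actin filaments. Fast and slow fibres build the same machine from different gene copies: separate myosin heavy chains, troponins and binding proteins. Embryonic and perinatal myosins precede the adult forms and return in regenerating fibres, which grow from satellite cells that express Pax7 and then Myod1 and Myog. Mice carry a thin sheet of such muscle beneath the skin. The labels name DU145 as the cell type and mention no muscle.

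The fast and developmental myosin heavy chain genes stand side by side on mouse chromosome 11, in the order Myh3, Myh2, Myh1, Myh4 and Myh8. In GRCm38 they run from base 67078300, the start of Myh3, to base 67308634, the end of Myh8, all on the plus strand. RefSeq promoters of GRCm38.p6, 250 bases before to 50 bases after the gene's start, were given for 35 of the 44 genes. Those of Myh4, Myh1, Myh2 and Myh8 are printed because they hold the same 14 letters, marked in capitals. That run is found, on either strand, in 4 of 27025 promoters (0.0148%), which are these 4. It starts 158, 160, 125 and 54 bases before the gene's start in Myh4, Myh1, Myh2 and Myh8. The windows are chr11:67237562-67237861 for Myh4, chr11:67199852-67200151 for Myh1, chr11:67170777-67171076 for Myh2 and chr11:67276874-67277173 for Myh8.
Myh4: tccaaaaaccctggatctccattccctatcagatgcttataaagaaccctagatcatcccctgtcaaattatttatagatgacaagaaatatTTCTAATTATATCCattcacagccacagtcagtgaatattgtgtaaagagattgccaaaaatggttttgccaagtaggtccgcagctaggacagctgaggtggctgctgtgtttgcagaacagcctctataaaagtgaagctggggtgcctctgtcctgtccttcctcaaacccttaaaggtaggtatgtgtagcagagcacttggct
Myh1: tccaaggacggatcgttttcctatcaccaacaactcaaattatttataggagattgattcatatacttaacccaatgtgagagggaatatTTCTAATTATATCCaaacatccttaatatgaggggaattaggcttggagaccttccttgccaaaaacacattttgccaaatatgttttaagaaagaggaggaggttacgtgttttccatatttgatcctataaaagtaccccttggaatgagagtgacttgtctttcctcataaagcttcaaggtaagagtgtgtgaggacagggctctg
Myh2: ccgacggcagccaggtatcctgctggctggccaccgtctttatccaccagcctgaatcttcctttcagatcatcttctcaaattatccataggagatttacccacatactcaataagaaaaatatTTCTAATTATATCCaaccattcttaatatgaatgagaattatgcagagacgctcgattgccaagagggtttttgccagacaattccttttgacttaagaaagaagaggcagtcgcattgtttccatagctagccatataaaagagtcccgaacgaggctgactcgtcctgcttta
Myh8: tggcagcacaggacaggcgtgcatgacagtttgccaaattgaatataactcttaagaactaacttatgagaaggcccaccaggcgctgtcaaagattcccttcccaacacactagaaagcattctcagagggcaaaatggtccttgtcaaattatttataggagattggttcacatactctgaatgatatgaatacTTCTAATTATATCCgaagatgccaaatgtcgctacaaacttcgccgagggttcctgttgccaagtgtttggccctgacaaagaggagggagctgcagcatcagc

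The promoters of Acta1, the actin gene of the list with the most counts, and of Myog, a factor that drives fibre formation, show motifs tied to muscle transcription. In Acta1, on the minus strand at chr8:123894726-123895025, capitals mark a CArG box, the site of serum response factor, whose first base lies 73 bases before the start. In Myog, on the plus strand at chr1:134289754-134290053, capitals mark E-boxes, CANNTG, the sites of myogenic factors such as Myod1, at 138 and 12 bases before the start. Motifs were searched on both strands, and a match here is letters in a window, not a bound site.
Acta1: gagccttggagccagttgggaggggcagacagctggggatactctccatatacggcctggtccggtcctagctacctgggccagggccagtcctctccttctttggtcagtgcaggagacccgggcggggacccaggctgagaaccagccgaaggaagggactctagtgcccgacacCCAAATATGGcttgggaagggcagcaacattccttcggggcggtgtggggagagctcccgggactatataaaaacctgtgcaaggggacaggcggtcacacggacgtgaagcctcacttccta
Myog: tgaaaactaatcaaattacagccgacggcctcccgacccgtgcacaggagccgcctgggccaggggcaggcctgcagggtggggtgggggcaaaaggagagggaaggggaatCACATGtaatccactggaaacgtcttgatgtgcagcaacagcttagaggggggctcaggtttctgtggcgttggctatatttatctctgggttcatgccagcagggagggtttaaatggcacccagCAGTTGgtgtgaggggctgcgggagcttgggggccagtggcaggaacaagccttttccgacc

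Among the 35 promoters of the list, 3 held a CArG box (8.57%; Acta1, Myh4 and Myom1), against 1.57% of all promoters. A MEF2 box stood in 5 (14.3%; Ttn, Myh1, Myh4, Myh8 and Pvalb), against 3.26% of all. The letters TATAAA stood in 9 (25.7%), against 14.2% of all. An E-box stood in 29 (82.9%), against 72.1% of all, so most promoters of any kind hold one.

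Muscle RNA differed far more from tumour to tumour than between the groups. The 44 genes took 0.0170% of the named mouse counts in MBZ_254, 0.0231% in MBZ_257 and 1.10% in MBZ_259, with Wilson 95% intervals of 0.0161 to 0.0180, 0.0219 to 0.0243 and 1.09 to 1.11. In the controls they took 0.0739% in NC10, 0.490% in NC4 and 0.398% in NC9, with intervals of 0.0718 to 0.0761, 0.485 to 0.495 and 0.394 to 0.402. One Zelnorm tumour therefore lay above all controls and the other two below all controls. The mean was 0.380% ± 0.623 in Zelnorm tumours and 0.321% ± 0.219 in control tumours (SD, n = 3 each), a difference of 0.0590 percentage points that is smaller than either SD. The difference turned to -0.301 points without MBZ_259 and to -0.0643 points without NC10. In such bulk samples, fewer muscle fibres and less RNA per fibre cannot be told apart.

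The mouse table held 5817165 to 9228446 counts per library, and depth in the human one was 24602178 to 39278195. The 44 genes had 1272, 1337 and 99067 mouse counts in the Zelnorm tumours, against 4537, 37347 and 36538 in the controls. In MBZ_254 and MBZ_257, 25 of the genes had under 3 counts each, so that their values there rest on counting error; 11 and 12 were at 0. All 44 had at least 1 count in MBZ_259, NC4 and NC9. A count of 3, the limit that a count of 0 allows, is worth 0.327 to 0.517 CPM in these libraries, as counts scaled to the library total alone. The CPM of genes given below also carry a TMM correction factor for each library, so they differ somewhat from that scale. Intervals and limits cover counting error only.

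**Figure D1:**
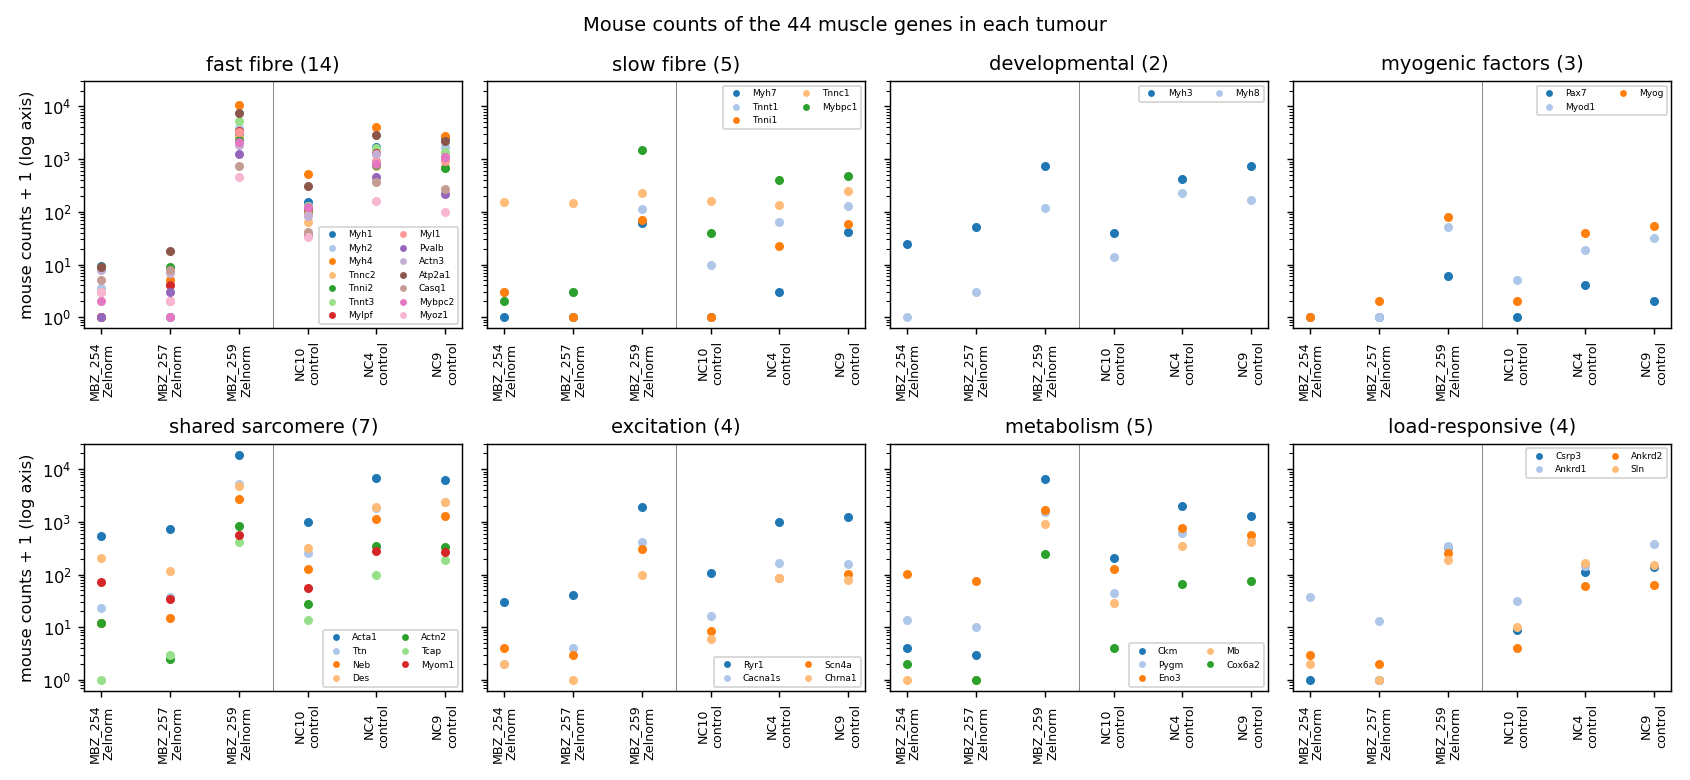
Deposited mouse counts plus 1 (log axis) of each of the 44 genes, 1 panel per class, with the 3 Zelnorm tumours left of the line and the 3 controls right of it; each point is 1 gene in 1 tumour. Fast fibre genes sit at 0 to 17 counts in MBZ_254 and MBZ_257 and at 450 to 10579 counts in MBZ_259, while Tnnc1 of the slow panel stays between 132 and 251 counts in every tumour.

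Tested gene by gene, none of the members differed between Zelnorm and control. Of 42 members with enough counts, edgeR's quasi-likelihood test called 0 after Benjamini-Hochberg adjustment over all 14459 tested mouse genes (adjusted p = 1.00 for each), where 0% of all tested genes were called. At an unadjusted p under 0.05 it was also 0 of 42, against 1.75% of all tested genes. DESeq2 and limma-voom called 0 members as well, against 0.0416% and 0% of all genes. DESeq2 gave an adjusted p for 14419 of the 14459 genes. It gave none for some members, Mybpc1, Myog and Ryr1 among them, so DESeq2 could not call these. All 3 Zelnorm values lay above all 3 control values in 0 of 42 members, against 2.52% of all genes, and below them in 0 of 42, against 3%. Myh7 and Pax7 had too few counts to be tested.

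What the members shared was an order of tumours that crosses the groups. MBZ_259 had the highest CPM in 36 of 42 members, against 13% of all tested genes, NC9 in 3, against 8.87%, and NC4 in 3, against 18.3%. MBZ_254 and MBZ_257 held the lowest pair of values in 37 of 42, against 5.49% of all. The full order, MBZ_259 above NC4 and NC9, these above NC10, and NC10 above MBZ_254 and MBZ_257, was met by 32 of 42, against 1.42% of all genes. These tumours and their order were picked with the values known, so the counts describe the members and test nothing. Tnnt1, Tnnc1 and Ankrd1 were highest in NC9, and Myh8, Chrna1 and Sln in NC4.

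The log2 fold change of Zelnorm over control ran from -1.80 (Myh8) to 0.99 (Ankrd2), with 30 members higher and 12 lower and a median of 0.20, against a median of 0.02 over all tested genes. Neither the direction nor the size held across all settings. limma-voom, which averages the logarithms of the tumours, gave a median of -2.45 with 1 of 42 higher. Without MBZ_259 the median was -5.84 with 0 higher, and without NC10 it was -0.26 with 11 higher. No member was called in any of these.

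**Figure D2:**
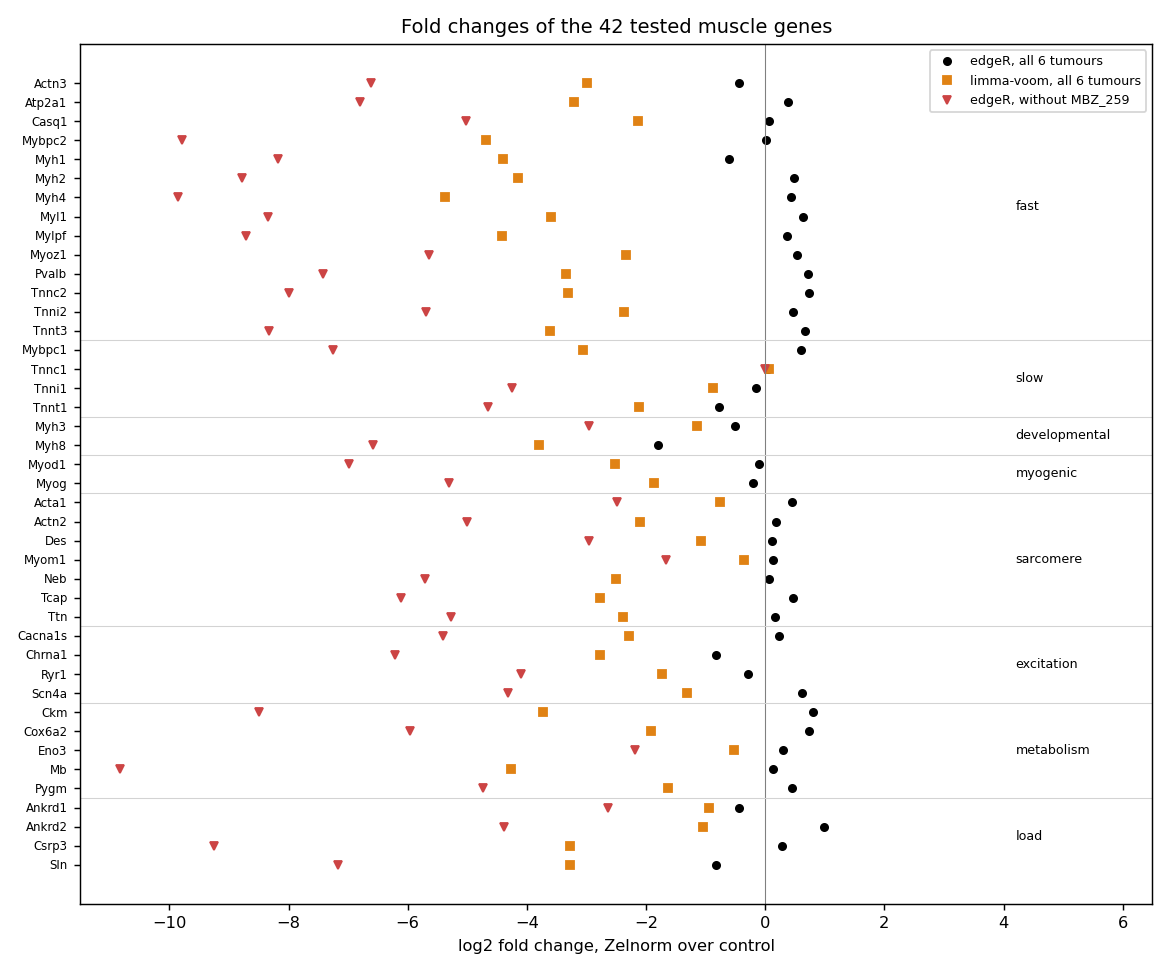
Log2 fold change of Zelnorm over control for the 42 tested genes, by class: edgeR on all 6 tumours (circles), limma-voom on all 6 (squares) and edgeR without MBZ_259 (triangles). The circles lie between -1.80 and 0.99, whereas without MBZ_259 the median of the triangles is -5.84; fitted values of genes at 0 counts in a group depend on the prior count.

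Fast fibre genes showed the tumour order without exception. All 14 were highest in MBZ_259 and all 14 followed the full order, with 12 higher and 2 lower in Zelnorm (median log2 fold change 0.44; median -8.08 without MBZ_259 and -3.46 with limma-voom). Myh4, the myosin heavy chain of the fastest fibres (type IIb), was at 0, 0.740 and 1209 CPM in the Zelnorm tumours, against 85.1, 517 and 299 CPM in the controls. A Zelnorm tumour was thus both the highest and the lowest of the 6, and the log2 fold change was 0.43 (SE 2.00). Myh1, the heavy chain of type IIx fibres, was at 1.02, 0 and 339 CPM in Zelnorm tumours and at 24.2, 224 and 274 CPM in controls (log2 fold change -0.61, SE 1.79). Myh2, the heavy chain of type IIa fibres, was at 0.381, 0 and 444 CPM in Zelnorm tumours and at 21.0, 115 and 182 CPM in controls (0.49, SE 1.85). Myh1 and Actn3, the alpha-actinin of fast fibres, were the fast genes that lay lower.

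The other fast genes serve regulation, calcium and structure, and their groups overlapped in the same way. The fast troponins Tnnc2, Tnni2 and Tnnt3 had log2 fold changes of 0.73 (SE 1.77), 0.46 (SE 1.57) and 0.67 (SE 1.89). Mylpf and Myl1, fast myosin light chains, stood at 0.36 (SE 1.83) and 0.63 (SE 1.80). Atp2a1, the calcium pump of fast fibres, was at 1.02, 3.15 and 854 CPM in Zelnorm tumours, against 49.5, 371 and 239 CPM in controls. Pvalb, a calcium buffer of fast fibres, had 0, 2 and 1248 counts in Zelnorm tumours, against 36, 449 and 215 in controls. Casq1, the store's calcium-binding protein, Mybpc2, a fast myosin-binding protein, and Myoz1, a Z-disc protein, had log2 fold changes of 0.06, 0.02 and 0.54.

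Per kilobase of exons, which lets genes be compared within a tumour, Acta1 led in MBZ_259 with 1381 CPM per kilobase. Tnnt3 (382), Tnnc2 (381) and Mylpf (374) came next on that scale and do not stand apart from each other, with no replicate of that tumour to judge them by. Ckm was at 255, Atp2a1 at 246 and Myh4 at 201 CPM per kilobase. Slow genes lay lower than these on the same scale in MBZ_259: Mybpc1 at 37.3, Tnnc1 at 25.1, Tnnt1 at 5.86 and Tnni1 at 2.16 CPM per kilobase. Some fast genes were near Mybpc1, with Casq1 at 43.4 and Myoz1 at 27.2. Myh3, the embryonic myosin, was at 14.2 and Myh8, the perinatal one, at 1.12. Lengths join the exons of all transcripts of a gene, 11772 bases for Myh8 and 6057 for Myh3, and a long union lowers the value.

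Which myosin heavy chain prevailed differed between tumours. Of the counts of Myh4, Myh1, Myh2, Myh7, Myh3 and Myh8 together, Myh4 held 57.6% in MBZ_259 (Wilson 95% interval 56.9 to 58.3), against 61.5% in NC10 (58.2 to 64.7), 55.1% in NC4 (53.9 to 56.2) and only 34.9% in NC9 (33.8 to 35.9). NC9 had more of its heavy chain counts in Myh1, 31.9%, against 16.2% in MBZ_259, 17.5% in NC10 and 23.9% in NC4. Myh2 held 21.2% in MBZ_259, against 15.2% in NC10, 12.2% in NC4 and 21.1% in NC9. MBZ_254 and MBZ_257 had only 34 and 58 heavy chain counts in all, and Myh3 held 67.6% of them in MBZ_254 (50.8 to 80.9) and 89.7% in MBZ_257 (79.2 to 95.2). In the other 4 tumours the share of Myh3 was 4.11% in MBZ_259, against 4.40%, 5.75% and 9.50% in NC10, NC4 and NC9. Human MYH3 had 116, 162 and 231 counts in Zelnorm tumours, against 120, 141 and 216 in controls. Per 100 mouse counts that is 502 in MBZ_254 and 314 in MBZ_257, against 30.6 in MBZ_259. In NC10, NC4 and NC9 it is 318, 34.0 and 28.7. Whether the Myh3 counts of MBZ_254 and MBZ_257 come from mouse muscle was not tested.

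**Figure D3:**
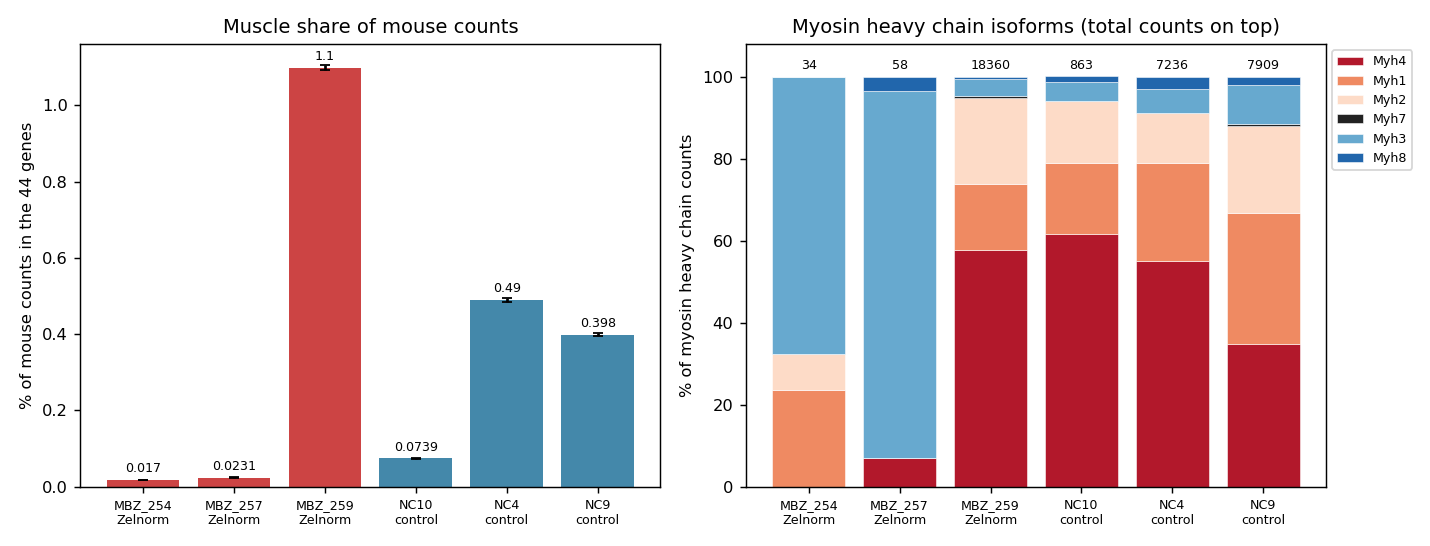
Left, percent of named mouse counts in the 44 genes for each tumour, with Wilson 95% intervals; right, percent of myosin heavy chain counts in each of 6 isoform genes, with the total counts above each bar. MBZ_259 holds the highest muscle share (1.10%), and Myh3 dominates the bars of MBZ_254 and MBZ_257, which rest on 34 and 58 counts.

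These isoform shares depend on how reads were split between near-identical copies. Of all 50-base words of the longest reading frame of Myh1, 27.9% occurred in another myosin heavy chain gene, as did 28.1% for Myh2, 19.5% for Myh4, 22.7% for Myh8, 23.8% for Myh7 (with the cardiac gene Myh6) and 4.99% for Myh3. The longest stretches were 268 bases between Myh1 and Myh2 and 245 bases between Myh7 and Myh6. The following run of 140 bases, shown because no read inside it can tell the 3 adult fast chains apart, is shared by Myh4, Myh1 and Myh2 and starts at base 1549 of each reading frame (bases 1549 to 1688 in Myh4, transcripts of GRCm38).
Myh4, Myh1 and Myh2: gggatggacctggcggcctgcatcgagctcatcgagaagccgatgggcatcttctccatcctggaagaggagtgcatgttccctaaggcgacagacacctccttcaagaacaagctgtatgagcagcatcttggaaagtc

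Fold changes of the tested slow fibre genes went both ways. All slow genes but Tnnc1 had MBZ_259, NC4 and NC9 each above the remaining tumours. Mybpc1, the slow myosin-binding protein and the slow gene with the highest CPM, was at 0.127, 0.370 and 169 CPM in Zelnorm tumours, against 6.25, 53.0 and 52.4 CPM in controls (log2 fold change 0.61, SE 1.65). Tnnt1, slow troponin T, was at 0.254, 0.370 and 12.9 CPM in Zelnorm tumours, against 1.44, 8.30 and 14.01 CPM in controls (-0.78). Tnni1, slow troponin I, was at 0.254, 0 and 7.77 CPM in Zelnorm tumours, against 0, 2.72 and 6.41 CPM in controls (-0.16). For all of these MBZ_259 was close to or above the highest control, and MBZ_254 and MBZ_257 lay among the lowest values. Myh7, the slow heavy chain, had 0, 0 and 59.2 counts in Zelnorm tumours, against 0, 2 and 39.99 in controls, so nearly all of its counts came from MBZ_259 and NC9.

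Tnnc1, the troponin C of slow and cardiac muscle, stood apart from the rest of the list. It was at 19.2, 27.0 and 26.2 CPM in Zelnorm tumours, against 25.2, 17.1 and 27.3 CPM in controls (log2 fold change 0.05, SE 0.23; adjusted p = 1.00 in edgeR). It was the 1 member of 44 in which MBZ_259, NC4 and NC9 did not each lie above the other 3 tumours. The human symbol TNNC1 had 344, 292 and 409 counts in Zelnorm tumours, against 311, 248 and 449 in controls. That is 179 to 228 human counts per 100 mouse counts in every tumour.

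Slow isoforms made up under 10% of troponin I, troponin T and adult heavy chain counts in MBZ_259 and in each control. Slow troponin I was 2.91% of troponin I counts in MBZ_259 (Wilson 95% interval 2.30 to 3.67), against 0% of 97 counts in NC10 (0 to 3.81), 2.59% in NC4 (1.70 to 3.93) and as much as 8.07% in NC9 (6.31 to 10.3). Slow troponin T was 2.09% in MBZ_259 (1.74 to 2.51), against 6.47% in NC10 (3.44 to 11.8), 3.72% in NC4 (2.92 to 4.72) and as much as 8.79% in NC9 (7.45 to 10.4). Among Myh1, Myh2, Myh4 and Myh7, slow Myh7 was 0.337% in MBZ_259, against 0% of 812 counts in NC10, 0.0303% in NC4 and 0.572% in NC9. In each of these pairs NC9 had the highest slow share of these 4 tumours. The values of MBZ_254 and MBZ_257 rest on 10 and 8 counts for troponin I, 4 and 5 for troponin T, and 11 and 4 for the adult heavy chains. The slow share of troponin C was 98.7%, 99.3% and 7.90% in Zelnorm tumours, against 71.7%, 14.9% and 26.1% in controls. Its slow gene, Tnnc1, had 132 to 251 counts in every tumour. Fast Tnnc2 had 2, 1 and 2668 counts in Zelnorm tumours, against 62, 752 and 711 in controls, so the share varied with Tnnc2.

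As group means, the slow share of troponin I was 7.64% ± 10.8 in Zelnorm and 3.55% ± 4.12 in control tumours (SD, n = 3 each; exact two-sided permutation p = 0.7). For troponin T it was 30.7% ± 25.3 in Zelnorm and 6.33% ± 2.54 in control (exact permutation p = 0.4). For troponin C it was 68.6% ± 52.6 in Zelnorm and 37.6% ± 30.1 in control (exact permutation p = 0.4), and for the adult heavy chains 0.113% ± 0.195 in Zelnorm and 0.201% ± 0.322 in control (exact permutation p = 0.7). Adjusted over these 4 comparisons each exact permutation p was 0.7, and 3 tumours against 3 cannot go below 0.1. The Zelnorm mean for troponin T takes in 50% in MBZ_254 and 40% in MBZ_257, which are 2 of 4 and 2 of 5 counts. For troponin I the values of these tumours are 2 of 10 and 0 of 8 counts. The difference for troponin I was 4.08 points and ran from -2.10 points without MBZ_254 to 7.90 points without MBZ_257. It was 31.4 points with the human counts added and 2.01 points with counts taken per kilobase of exons. For troponin T it was 24.4 points, with 14.7 points without MBZ_254, 38.7 without MBZ_259 and 49.3 with human counts added. For troponin C it was 31.1 points, with 15.7 points without MBZ_257, 16.0 without MBZ_254 and 19.7 without NC4. It was 48.1 points without NC10, 61.4 without MBZ_259 and 19.96 with human counts added. In MBZ_254 and MBZ_257 human TNNI1 had 27 and 89.0 counts, against 2 and 0 of mouse Tnni1. Human TNNT1 had 69 and 21 counts there, against 2 and 2 of mouse Tnnt1. With human counts added, the troponin I and T shares of these tumours thus rest mostly on the human table. Neither human symbol had MBZ_259, NC4 and NC9 each above the other tumours.

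Both developmental myosins overlapped between groups, with a median log2 fold change of -1.15 that was -2.47 with limma-voom and -4.77 without MBZ_259. Myh3 was at 2.92, 9.62 and 86.2 CPM in Zelnorm tumours, against 6.09, 53.9 and 81.6 CPM in controls (log2 fold change -0.51, SE 1.15). In MBZ_257 it exceeded the lowest control, NC10, and in MBZ_259 it exceeded the highest, NC9. Myh8 was at 0, 0.370 and 13.1 CPM in Zelnorm tumours, against 2.08, 28.9 and 17.7 CPM in controls (-1.80, SE 1.34). NC4 had the highest value of Myh8, and MBZ_259 lay below NC4 and NC9, unlike most of the list.

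Myogenic factors were scarce in every tumour and near absent where fibre genes were. Pax7, which marks satellite cells, had 0, 0 and 5 counts in Zelnorm tumours, against 0, 3 and 1 in controls. Myod1, the factor of activated satellite cells, was at 0, 0 and 5.72 CPM in Zelnorm tumours, against 0.641, 2.33 and 3.37 CPM in controls (log2 fold change -0.10, SE 1.31). Myog was at 0, 0.185 and 9.14 CPM in Zelnorm tumours, against 0.160, 5.06 and 5.76 CPM in controls (-0.20, SE 1.41). MBZ_259 was the highest for both factors and the other Zelnorm tumours were at or near 0, so the groups overlapped.

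The shared sarcomere genes all had log2 fold changes between 0.06 (Neb) and 0.46 (Tcap), 7 of 7 above 0, with a median of 0.17 that was -5.01 without MBZ_259. Acta1, skeletal muscle actin, was at 67.8, 135 and 2121 CPM in Zelnorm tumours, against 156, 891 and 664 CPM in controls (0.44, SE 1.17). It kept 534 and 732 counts in MBZ_254 and MBZ_257, 41.98% and 54.7% of all member counts there, against 18.7% in MBZ_259 and 16.7% to 21.5% in the controls. Des, the muscle intermediate filament desmin, kept 207 and 116 counts in the same pair, and Myom1, an M-band protein, 70 and 34. By contrast Ttn, the giant spring titin, had 22 and 36 counts, Neb, which lines the thin filament, 11 and 14, Actn2, the Z-disc alpha-actinin, 10.99 and 1.46, and Tcap, the cap of titin, 0 and 2.

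Desmin and actin also occur outside skeletal muscle or share letters with genes that do. Des is expressed in smooth muscle, whose marker list, led by Rgs5, summed to 1385, 1004 and 1134 CPM in Zelnorm tumours, against 1290, 1099 and 989 CPM in controls, with all 8 of 8 markers measured. Acta1 shared 2.58% of its 50-base words with Actb, the cytoskeletal actin. Their part in the counts of MBZ_254 and MBZ_257 was not tested.

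Among the excitation genes, Ryr1, the calcium release channel, was at 3.68, 7.40 and 216 CPM in Zelnorm tumours, against 17.3, 128 and 132 CPM in controls (log2 fold change -0.29, SE 1.32). Cacna1s, the voltage sensor that opens it, stood at 0.22 (SE 1.43) and Scn4a, the muscle sodium channel, at 0.61 (SE 1.40). Chrna1, a subunit of the acetylcholine receptor at the nerve contact, was at 0.127, 0 and 10.9 CPM in Zelnorm tumours, against 0.802, 11.1 and 8.26 CPM in controls (-0.83). MBZ_259 lay near NC4 for Chrna1 but well above it for the other 3.

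Metabolic genes were 5 of 5 above 0, with a median log2 fold change of 0.45 that was -5.96 without MBZ_259. Ckm, creatine kinase of muscle, was at 0.381, 0.370 and 744 CPM in Zelnorm tumours, against 32.6, 254 and 140 CPM in controls (0.80, SE 1.91). Mb, the oxygen store myoglobin, had 0, 0 and 891 counts in Zelnorm tumours, against 28.2, 347 and 405 in controls. Pygm, which breaks down glycogen, stood at 0.45 (SE 1.498), Cox6a2, a muscle subunit of cytochrome oxidase, at 0.74 (SE 1.54), and Eno3, muscle enolase, at 0.30 (SE 1.03). Eno3 kept 101 and 75 counts in MBZ_254 and MBZ_257, more than any other metabolic gene there.

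The 4 load-responsive genes went both ways, 2 above and 2 below 0. Ankrd1, a titin-binding stretch sensor, was at 4.57, 2.22 and 40.3 CPM in Zelnorm tumours, against 4.81, 19.1 and 40.7 CPM in controls (log2 fold change -0.44, SE 1.02). Ankrd2, its relative, was at 0.254, 0.185 and 29.0 CPM in Zelnorm tumours, against 0.481, 7.78 and 6.63 CPM in controls (0.99). Csrp3, a Z-disc sensor of stretch, was at 0, 0 and 37.5 CPM in Zelnorm tumours, against 1.28, 14.5 and 15.2 CPM in controls (0.29, SE 1.56). For Ankrd2 and Csrp3 MBZ_259 stood well above every control, whereas for Ankrd1 it was level with NC9. Sln, the calcium pump inhibitor sarcolipin, was at 0.127, 0 and 21.4 CPM in Zelnorm tumours, against 1.44, 21.6 and 16.1 CPM in controls (-0.83, SE 1.45), so MBZ_259 and NC4 were level.

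A second list of 79 muscle genes outside the 44 showed the high values of MBZ_259 as well. Of 65 tested, 0 were called by edgeR, where 0% of all genes were called, 48 were higher and 17 lower in Zelnorm, and 55 were highest in MBZ_259, against 13% of all genes. The direction was no steadier than for the 44: limma-voom put 10 of 65 higher (median log2 fold change -1.47, against 0.16 with edgeR), and without MBZ_259 2 of 65 were higher (median -4.38). Tpm2, a tropomyosin of fast and slow fibres, was at 79.8, 61.4 and 526 CPM in Zelnorm tumours, against 81.8, 263 and 190 CPM in controls. Xirp2, which binds actin at cell junctions, was at 0, 0.185 and 269 CPM in Zelnorm tumours, against 13.1, 40.6 and 100 CPM in controls. Fhl1, a LIM-domain protein, was at 25.7, 25.7 and 300.1 CPM in Zelnorm tumours, against 41.7, 120.4 and 88.3 CPM in controls. These 3 genes were highest in MBZ_259 with NC4 or NC9 next. Pfkm, muscle phosphofructokinase, was at 48.4, 98.98 and 192 CPM in Zelnorm tumours, against 71.5, 113 and 112 CPM in controls. Eef1a2, a translation factor of muscle and nerve, was at 99.9, 139.5 and 244 CPM in Zelnorm tumours, against 112, 203 and 178 CPM in controls, and was highest in MBZ_259 too. Phka1, a subunit of phosphorylase kinase, was at 36.2, 73.3 and 63.4 CPM in Zelnorm tumours, against 50.03, 50.9 and 57.1 CPM in controls, with no trace of the tumour order.

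Markers of other host cells were set beside the muscle genes. Tendon markers, 6 of 6 measured, summed to 572, 325 and 1204 CPM in Zelnorm tumours, against 848, 908 and 829 CPM in controls, and like the muscle genes were highest in MBZ_259 and lowest in MBZ_257 and MBZ_254. Thbs4, the tendon marker with the highest CPM, was at 273, 82.0 and 603 CPM in Zelnorm tumours, against 352, 480 and 421 CPM in controls, and 2 of 6 tendon markers were highest in MBZ_259. Fat cell markers, led by Car3 and 7 of 8 measured, summed to 279, 140 and 227 CPM in Zelnorm tumours, against 320, 966 and 619 CPM in controls, so that MBZ_259 was among the lowest. Fibroblast markers, led by Col1a2, summed to 19920, 9094 and 18149 CPM in Zelnorm tumours, against 16846, 24598 and 15888 CPM in controls, without the order of the muscle genes. The part of these cells in the muscle values was not tested.

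Endothelial markers, led by Pecam1, summed to 954, 569 and 835 CPM in Zelnorm tumours and 727, 1073 and 776 CPM in controls. Macrophage markers, led by Lyz2, summed to 3112, 3457 and 3419 CPM in Zelnorm tumours and 3110, 2808 and 2359 CPM in controls. Skin markers, led by Dsp, ranged from 652 to 1013 CPM in Zelnorm tumours and from 730.5 to 802 CPM in controls, and nerve sheath markers, led by Cnp, from 40.1 to 86.0 CPM in Zelnorm tumours and from 51.2 to 90.6 CPM in controls. None of these 4 sums was highest in MBZ_259. Of the heart markers, 4 of 9 were measured, and Nppa and Nppb, hormones of heart muscle, were at 0 in all 6 tumours. The 4, led by Tnnt2, summed to 11.9, 19.1 and 36.9 CPM in Zelnorm tumours, against 16.5, 40.3 and 46.5 CPM in controls, so that MBZ_259, NC4 and NC9 were the highest, as for the muscle genes. Of the brown fat markers Cox8b alone was measured (0, 0.185 and 6.97 CPM in Zelnorm tumours; 0.802, 3.11 and 1.63 CPM in controls), and Ucp1, the defining one, was at 0 in all 6. Cox8b followed the full order of the muscle genes.

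The human table, meant for the DU145 cells, held counts for the same symbols, and many followed the mouse order. The human symbols summed to 2499, 2651 and 21500 counts in Zelnorm tumours, against 2976, 9827 and 10810 in controls. Per 100 mouse counts of the list that is 196, 198 and 21.7 human counts in Zelnorm tumours, against 65.6, 26.3 and 29.6 in controls. In 29 of 44 human symbols (65.9%) MBZ_259, NC4 and NC9 each lay above the other 3 tumours, against 3.73% of 18816 human genes with 60 or more counts. In the mouse table it was 43 of 44 members, against 4.55% of 14473 genes. The limit of 60 counts was not applied to the 44 genes in either table, and this split of the tumours was chosen with the values known. The sources used here do not say how reads were assigned to a species, so human and mouse origin of these counts cannot be told apart.

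The human symbols with the most counts fell into those that tracked the mouse gene and those that did not. ACTA1 had 26.6, 22.7 and 3336 counts in Zelnorm tumours, against 78.4, 1104 and 953 in controls. MYH1 had 0, 2 and 2183 counts in Zelnorm tumours, against 84.4, 955 and 1301 in controls, and MYH4 had 0, 0 and 2239, against 107, 907 and 694 in controls. For MYH4 that is 21.2 human per 100 mouse counts in MBZ_259, against 20.1, 22.7 and 25.2 in NC10, NC4 and NC9. DES had 61, 33 and 1482 counts in Zelnorm tumours, against 102, 612 and 777 in controls, a steady 28.4 to 32.5 human per 100 mouse counts in all 6. ATP2A1 had 88, 114 and 1454 counts in Zelnorm tumours, against 161, 556 and 523 in controls, with more in MBZ_254 and MBZ_257 than its mouse partner had.

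ENO3, by contrast, had 675, 522 and 1141 counts in Zelnorm tumours, against 537, 1326 and 1032 in controls, and exceeded the mouse gene in all tumours but MBZ_259. The total over 6 tumours was higher in the human than in the mouse table for 5 of 44 symbols: ENO3, TNNC1, TNNI1, MB and ANKRD1. MB had 293, 207 and 293 counts in Zelnorm tumours, against 251, 334 and 310 in controls, while mouse Mb was at 0 in MBZ_254 and MBZ_257. ANKRD1 had 290, 410 and 399 counts in Zelnorm tumours, against 308, 134 and 651 in controls. At the other end, PVALB had 4 counts in all against 1248 mouse counts in MBZ_259 alone, COX6A2 had 1, and SLN had 3, all in MBZ_254. The share of human to mouse counts in MBZ_259 thus ran from 0 for SLN, COX6A2 and PAX7 to 179 per 100 for TNNC1.

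**Figure D4:**
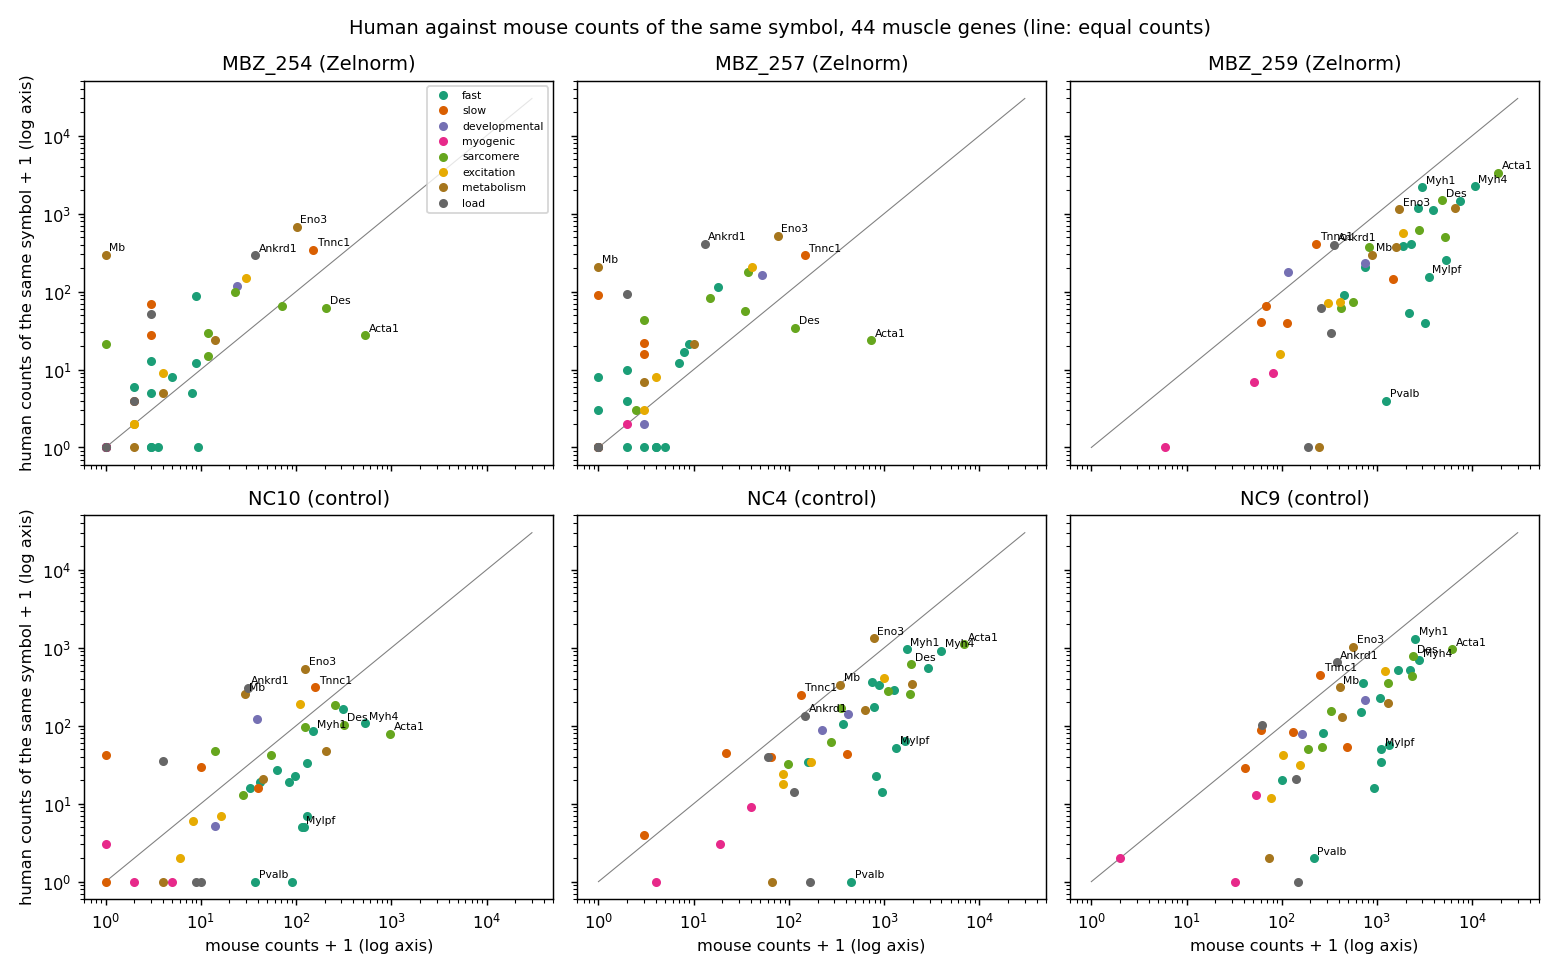
Human counts plus 1 against mouse counts plus 1 of the same symbol (log axes), 1 panel per tumour with the Zelnorm tumours on top and the controls below; points are the 44 genes coloured by class and the line marks equal counts. In MBZ_259, NC4 and NC9 most points lie below the line and rise with the mouse counts. In MBZ_254 and MBZ_257 human counts of Eno3, Mb, Ankrd1 and Tnnc1 stand above the line, with mouse Mb at 0. These genes also stand above it in other tumours, Tnnc1 in every tumour.

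Among human genes, 36 of the 44 symbols could be tested, and edgeR called 0 of them after Benjamini-Hochberg adjustment over 18820 genes, where 0% of all were called. At an unadjusted p under 0.05 it was 0 of 36, against 1.31% of all human genes, and DESeq2 and limma-voom called 0 members, against 0.00532% and 0% of all. All Zelnorm values lay above all control values in 0 of the 36, against 2.52% of human genes, and below them in 0, against 2.31%. The symbols were higher in Zelnorm in 23 and lower in 13, with a median log2 fold change of 0.07. This split turned round with limma-voom (5 of 36 higher, median -0.76), without MBZ_259 (6 higher, median -2.27) and without NC10 (9 higher, median -0.25). With human counts added both to the muscle genes and to the library totals, the difference in muscle share was 0.00867 percentage points. Human totals exceeded mouse totals in every library, so this value is not on the scale of the mouse share alone.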

How the data were processed

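Total RNA of 6 tumours was sequenced from TruSeq libraries, per the labels' protocols. The authors deposited estimated counts per gene, not all whole, in a human and a mouse table; of values above 0, 38.0% and 27.0% were not whole. HISAT2, StringTie, DESeq2, edgeR, GRCh38 and GRCm38 are named in the submitters' processing notes, without versions or roles, and the sources used here do not say how reads were divided between species. Columns carry a group prefix and a number that no label repeats, so each column has a group but no replicate number. The labels name no animals, so p-values measure the spread between these samples, which may be technical.

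The estimated counts were rounded, and rows without a gene name, 856 of 56392 mouse and 574 of 59458 human rows, were left out (0.317% to 0.518% of a library's counts). Each whole table was fitted with edgeR 4.0.16 in R 4.3.3 (filterByExpr, TMM, two-sided quasi-likelihood test, Benjamini-Hochberg threshold 0.05); CPM use TMM factors, and the tables were never put on one scale. Alternatives were DESeq2 1.42.0, limma-voom 3.58.1, other scalings, no filter, unrounded counts and leaving out each tumour. SE comes from the F statistic. Coordinates and exon lengths are from GENCODE vM21 (GRCm38), promoters from RefSeq (GRCm38.p6), and reading frames are the longest of each gene's protein-coding transcripts. The edgeR, DESeq2 and limma-voom fits were tested on simulated counts with the same dispersion for every gene. Such counts lack the wide spread that the muscle genes show between tumours.

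The members, lists and tests were chosen with earlier results of these data known. All 44 members are accounted for. Values in all tumours are printed for the member of each class with the highest mean CPM, every slow, developmental and myogenic gene, Sln, Ankrd1, Ankrd2 and Csrp3, any member with an unadjusted p under 0.05 (0 were found), the 6 other muscle genes with the highest mean CPM and the 6 human symbols with the most counts; each marker list is named with its gene of highest mean CPM. Further genes given with all values (Myh1, Myh2, Tnnc2, Atp2a1, Pvalb, Chrna1, Mb and human MB, TNNC1, MYH3 and ANKRD1) were chosen after their values were seen.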

Additional observations from a re-analysis of the deposited data

How the results depend on the processing

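The count of called members stayed at 0 in 13 of 13 alternatives in the mouse and in the human table. Over all mouse genes edgeR called 0, DESeq2 6 and edgeR without a count filter 2; over all human genes the counts were 0, 1 and 61. With limma-voom the median log2 fold change of fast genes was -3.46, and single genes turned to -5.37 (Myh4), -3.06 (Mybpc1), -0.76 (Acta1) and -3.74 (Ckm); the cause was not tested.

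Leaving out each tumour moved the class medians from -8.08 to 1.02 (fast), -4.45 to 0.54 (slow), -4.77 to -0.60 (developmental), -6.15 to 0.42 (myogenic), -5.01 to 0.74 (sarcomere), -4.86 to 0.53 (excitation), -5.96 to 1.13 (metabolism) and -5.77 to 0.51 (load), the lowest value always without MBZ_259. Single genes ran from -9.85 to 1.07 (Myh4), -7.25 to 1.18 (Mybpc1), -2.96 to 0.11 (Myh3), -5.31 to 0.37 (Myog), -2.49 to 0.97 (Acta1), -4.09 to 0.26 (Ryr1), -8.50 to 1.52 (Ckm) and -2.64 to 0.38 (Ankrd1). The slow share of troponin I differed by -2.10 to 7.90 points, and that of adult heavy chains by -0.201 to 0.0976 points.

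No paired analysis was possible because the columns carry no replicate number of the labels. With 25 members under 3 counts in MBZ_254 and in MBZ_257, depth limits every share and fold change that uses those tumours.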

Other observations

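Genes of the nerve contact and of early fibre formation outside the 44 were looked at after their values were seen. Chrng, the fetal subunit of the muscle acetylcholine receptor, had 0, 0 and 4 counts in Zelnorm tumours, against 1, 25 and 16 in controls. Chrne, the adult subunit that takes its place, had 0, 0 and 1 counts in Zelnorm tumours, against 1, 3 and 0 in controls. The fetal subunit was thus counted most in NC4 and NC9, the tumours in which perinatal Myh8 was also highest, while MBZ_259, with the highest muscle share, had few counts of it. Myf6, a myogenic factor of mature fibres, had 0, 0 and 79 counts in Zelnorm tumours, against 7, 38 and 25 in controls, and Myf5, an earlier factor, was counted in NC4 alone, with 1 count. Myl2, the slow and cardiac light chain, had 0, 0 and 34 counts in Zelnorm tumours, against 2, 2 and 31 in controls, with MBZ_259 and NC9 high, as for Myh7. These counts are too low for a comparison between groups.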
